A study of Mus musculus with 34 samples.

Results

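Heat shock proteins and DnaJ proteins are the chaperones that fold new proteins and hold damaged ones. The set described here holds 70 genes, read by 79 probes, of the 22879 features tested (18617 of them with a gene symbol). It was chosen by name alone: every probe with a single symbol beginning with Hspa, Hspb, Hspd, Hspe, Hsph or Hsp90, or with Dnaja, Dnajb or Dnajc and a digit, without the co-chaperones Hspbap1 and Hspbp1. That choice was made with earlier results of these data known. All 70 genes passed into the test, since no filter on low values was used. They comprise 13 Hsp70 and Hsp110 genes, 2 Hsp90 genes, 8 small heat shock proteins, the chaperonin pair Hspd1 and Hspe1, and 4 Dnaja, 13 Dnajb and 28 Dnajc genes. Hspa1a and Hsp90ab1 were among the genes to be named but had no named probe.

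The RNA came from epididymal fat, the fat pad beside the testis and epididymis of the mouse. STD mice ate a normal diet and HF0 mice were their offspring on a high-fat diet. HF1 mice were high-fat offspring of HF0, HF3 of an HF2 generation that is not analysed here, and HF4 of HF3. Each of these groups has a reversal group (HF1-REV, HF3-REV, HF4-REV) born to the same parents and fed the normal diet, so the pair differs in its own diet and not in descent. All groups descend from STD mice. For strain, age, diet composition and the number of animals behind each RNA, nothing was given in the sources used here, so the p-values reflect no more than how these extracts varied, which may be technical. Experiment 1 (Trizol extraction, 12 arrays) paired STD, HF0, HF3 and HF4 each with each. Experiment 2 (Qiagen extraction, 22 arrays) paired HF0, HF1, HF3 and HF4 likewise, used 4 arrays for HF0 with STD, and set HF1, HF3 and HF4 against their reversal groups on 2 arrays each. Every pairing was hybridised in both dye orientations.

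Each array gives a log ratio of 2 groups, taken as log2, with no level for either. Values are differences on that scale, first-named group minus second, coded as Cy5 over Cy3. Which dye was the numerator of the deposited ratios is unstated. If it was Cy5, a positive value is a higher RNA level in the group named first, and if it was Cy3 every sign turns. Positive and negative below are therefore relative directions. Fitted differences carry a standard error (SE) and a p from limma, adjusted by Benjamini-Hochberg over all 22879 features, with 0.05 as the threshold. STD, HF0, HF3 and HF4 have n = 2 extracts, 1 per experiment. The labels do not say that all arrays of a group in an experiment carry the same RNA: this was assumed, and every n and p-value rests on it. The remaining groups have n = 1 extract, whose spread was taken to equal that of the rest. Because only ratios were deposited, the labelled tissue could not be checked by the level of adipocyte markers, and fewer cells of a type cannot be told apart from less RNA per cell.

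One property of experiment 1 bears on every value from it. When 3 groups are paired with each other, the differences should add up, and there they did not. The labels do not settle which pairings are at fault or whether an array or label was exchanged, so each group value of experiment 1 is an average over pairings that differ. The Hsp70 relative Hspa4l read 3.02 and 3.34 on the HF3 with HF0 arrays. Yet it read 0.30 and -0.01 on the HF0 with STD arrays and -0.08 and 0.01 on the HF3 with STD arrays. Its means on the HF4 arrays of that experiment were 2.15 with HF0, 2.91 with STD and 2.02 with HF3. For this gene the pairings apart from HF3 with HF0 thus came close to adding up. Why HF3 with HF0 differed was not tested. Over all features, the standard deviation of what the pairings measured beyond the fitted group values was 0.19 to 0.28 in experiment 1, beside 0.21 to 0.46 for the fitted differences themselves. In the 6 pairings of HF0, HF1, HF3 and HF4 in experiment 2 it was 0.15 to 0.17, beside 0.35 to 0.62. The sign-turned arrays of 1 pairing correlated between -0.309 (HF1 with HF1-REV) and 0.751 over all features. Results are therefore given for each experiment apart, and also from a fit that takes the 16 pairings as its observations, in which pairings that do not add up count as error. That fit was added after the data had been seen.

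As background, Hsp70 proteins bind and release unfolded chains in a cycle driven by ATP. J-domain proteins, the Dnaj genes, bring them their clients and trigger that cycle, while Hsp110 proteins reset it by exchanging the nucleotide. Small heat shock proteins hold unfolding proteins without ATP, and Hspd1 with its lid Hspe1 folds proteins inside mitochondria. Heat shock factors switch on the inducible members through GAA repeats in their promoters. Several members are instead made mainly in the testis during sperm formation, among them Hspa1l, Hspa2, Hspa4l, Hspb9, Dnajb3 and Dnajb13.

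The chaperones of the fat pad divided into a small group with large differences and a large group near 0. In HF4 against HF0, 9 of the 70 genes passed the threshold, all of them positive: Dnajb3, Hspa4l, Dnajc5b, Hspb9, Hspa1l, Dnajb13, Dnajb8, Dnajc5g and Dnajb14. The first 8 belong to a list of 10 testis-enriched chaperones, and the other 2 of that list, Hspa2 and Dnajb7, were positive without passing. That list, like the others below, was chosen with earlier results of these data known, so its share of the calls is a description only. Of all features, 4.21% were called in this comparison and 4.19% were called and positive, beside 12.9% of the chaperones. The median of the 70 genes was 0.07, of the testis-enriched list 2.02, of the 60 remaining chaperones 0.02 and of all features -0.03.

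**Figure D1:**
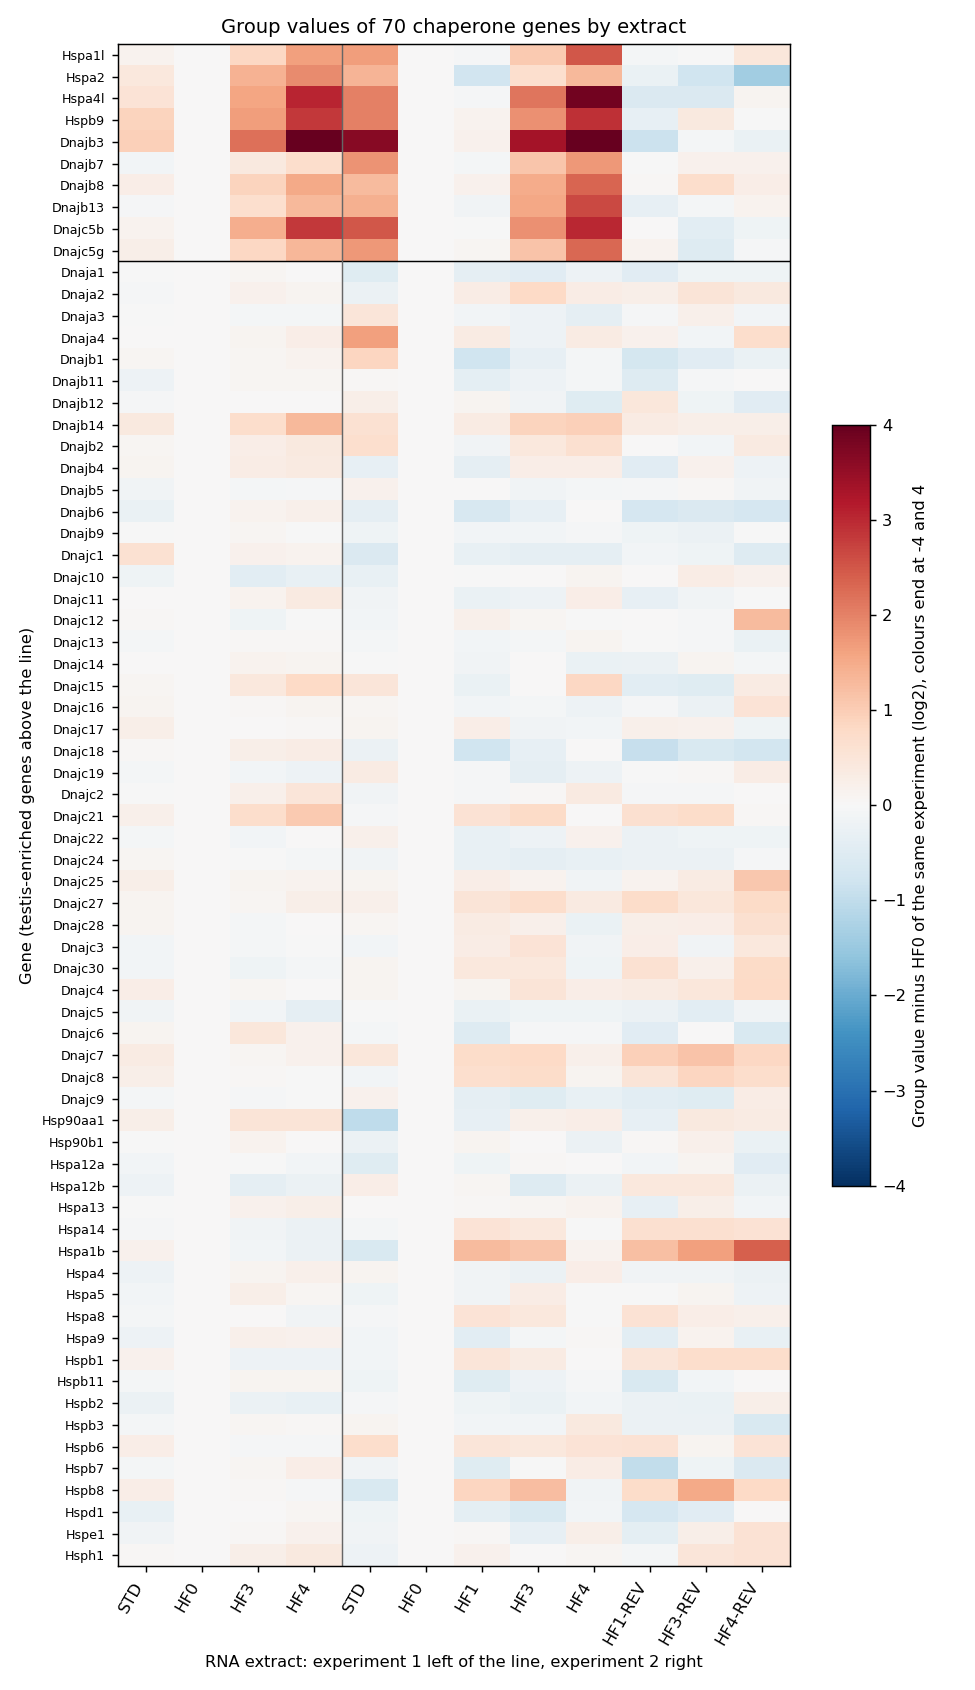
Group values of the 70 genes in each RNA extract, relative to HF0 of the same experiment (log2, colour scale ending at -4 and 4), with experiment 1 left of the vertical line and experiment 2 right of it. The 10 testis-enriched genes stand above the horizontal line and are red in HF3 and HF4 of both experiments and in STD of experiment 2, while most rows below it stay near white. Values of experiment 1 are averages over pairings that did not add up.

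Dnajb3 had the largest difference of any member. This J protein gene (chr1:88204732-88205748 in GRCm38.p6, as are all positions here) read 3.24 and 2.97 on the HF4 with HF0 arrays of experiment 1 and 4.82 and 5.10 on those of experiment 2. The fitted difference was 4.53 ± 0.57 (SE, n = 2 extracts a group; limma adjusted p = 0.0123). Both experiments were high, and all 4 arrays had 1 sign.

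Hspa4l, an Hsp110 relative needed for normal sperm (chr3:40744500-40796103), read 2.45 and 1.84 in experiment 1 and 3.34 and 4.40 in experiment 2. Its difference of 3.46 ± 0.32 (limma adjusted p = 0.00792) had the lowest adjusted p of the 70 genes in this comparison. Hspb9, a testis-specific small heat shock protein (chr11:100713929-100714575), read 2.26 and 2.05, then 3.79 and 2.78, with a difference of 2.87 ± 0.28 (limma adjusted p = 0.00871). In both genes the arrays of experiment 2 lay above those of experiment 1.

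Dnajc5b and Dnajc5g are relatives of Dnajc5, the cysteine string protein of synaptic vesicles. Dnajc5b (chr3:19508591-19610862) read 1.98 and 2.18 in experiment 1 and 3.44 and 3.66 in experiment 2, and its fitted difference was 2.92 ± 0.54 (limma adjusted p = 0.0409). Dnajc5g (chr5:31108293-31112526) read 0.81 and 0.86, then 2.73 and 3.22, and was called at 1.82 ± 0.35 (limma adjusted p = 0.0459). Dnajc5 itself was the most negative member in the same comparison, at -0.27 ± 0.12 (limma adjusted p = 0.523). Of these 3 paralogs the 2 testis-enriched ones were called and the widely expressed one was not. The difference between paralogs was not tested.

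Hspa1l, the Hsp70 made in spermatids, lies near the inducible Hsp70 gene Hspa1b on chromosome 17 (chr17:34972703-34979228 and chr17:34956429-34959238). On the HF4 with HF0 arrays Hspa1l read 1.18 and 0.63 in experiment 1 and 2.77 and 2.85 in experiment 2, and the fitted difference was 2.06 ± 0.36 (limma adjusted p = 0.0322). Hspa1b read -0.12 and -0.73, then 0.01 and 0.39, with a fitted difference of -0.05 ± 0.42 (limma adjusted p = 0.994). The genes thus had unlike values, 1 called and positive and the other on both sides of 0.

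Dnajb13, a J protein of the radial spokes of the sperm tail (chr7:100503011-100514815), had a difference of 1.98 ± 0.34 (limma adjusted p = 0.0317), with 1.31 in experiment 1 and 2.65 in experiment 2. Dnajb8 (chr6:88222268-88223256), a J protein that suppresses aggregation, came to 1.92 ± 0.24 (limma adjusted p = 0.0119), with 1.50 and 2.34. The 1 called gene outside the testis-enriched list was Dnajb14, a J protein of the endoplasmic reticulum membrane (chr3:137867675-137916563). Its arrays read 0.92, 1.20, 1.10 and 1.37, the narrowest spread of the 9, and the difference was 1.13 ± 0.17 (limma adjusted p = 0.0193).

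The promoters of 4 members are given as the 200 bases before the RefSeq start, on the strand of the gene and in lower case. Hspa1b and Hspa1l are shown as genes near each other with unlike values, and Hspb9 and Dnajb3 as called testis-enriched members. Capitals mark GAANNTTC (a facing pair of heat shock element units), TGACGT (the core of a cAMP response element) and CCAAT, each searched on both strands.
Hspa1b, chr17:34959239-34959438, minus strand: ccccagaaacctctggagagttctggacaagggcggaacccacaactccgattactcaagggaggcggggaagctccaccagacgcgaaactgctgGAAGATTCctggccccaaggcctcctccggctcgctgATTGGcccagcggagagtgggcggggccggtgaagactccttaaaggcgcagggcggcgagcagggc
Hspa1l, chr17:34972503-34972702, plus strand: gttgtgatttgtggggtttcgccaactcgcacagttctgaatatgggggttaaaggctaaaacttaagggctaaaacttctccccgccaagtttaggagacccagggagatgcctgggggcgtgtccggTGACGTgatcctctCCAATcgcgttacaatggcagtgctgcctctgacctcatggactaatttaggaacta
Hspb9, chr11:100713729-100713928, plus strand: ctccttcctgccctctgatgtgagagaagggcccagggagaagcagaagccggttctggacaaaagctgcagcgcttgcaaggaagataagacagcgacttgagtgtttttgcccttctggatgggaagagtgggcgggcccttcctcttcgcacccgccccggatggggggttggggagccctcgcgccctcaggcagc
Dnajb3, chr1:88205749-88205948, minus strand: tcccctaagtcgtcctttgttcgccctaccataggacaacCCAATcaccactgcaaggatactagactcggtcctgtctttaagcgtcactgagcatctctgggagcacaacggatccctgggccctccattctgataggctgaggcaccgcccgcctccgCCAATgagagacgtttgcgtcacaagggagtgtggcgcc
Hspa1b held GAANNTTC at -104 to -97 and CCAAT at -67 to -63, counted back from the start. Hspa1l held TGACGT at -71 to -66 and CCAAT at -57 to -53. Dnajb3 held CCAAT at -160 to -156 and at -39 to -35, and in Hspb9 none of these letters were found in this window.

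RefSeq promoters (GRCm38.p6) were matched for 57 of the 70 genes and for 9 of the 10 testis-enriched ones. In the 250 bases before the start, GAANNTTC was found in 10 of the 57 genes and in 7.73% of 27025 genes. The 10 were Dnaja1, Dnaja4, Dnajb6, Dnajc27, Hspa1b, Hspb1, Hspb3, Hspb6, Hspd1 and Hspe1. None of the 9 testis-enriched genes held it. TGACGT was in 8 of the 57 and 7.29% of genes, among them Hspa1l and Hspa5. CCAAT was in 22 of the 57 and 37.5% of genes, including 5 of the 9 testis-enriched ones. These are matches of letters and describe the windows only.

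The remaining testis-enriched genes were positive and not called. Hspa2, the Hsp70 of meiotic germ cells (chr12:76403812-76406938), read 0.97, 0.64, 1.56 and 1.85 and had a difference of 1.60 ± 0.39 (limma adjusted p = 0.109). Dnajb7 (chr15:81407088-81408273) read 0.17 and 0.00 on the direct arrays of experiment 1 and 1.73 and 1.84 on those of experiment 2. Its fitted difference was 1.21 ± 0.41 (limma adjusted p = 0.298), with 0.69 in experiment 1, where the other pairings raised it, and 1.74 in experiment 2. With the 16 pairings as observations, 14 of the 70 genes passed in HF4 against HF0, including all 9 called above, and so did 10% of all features.

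**Figure D2:**
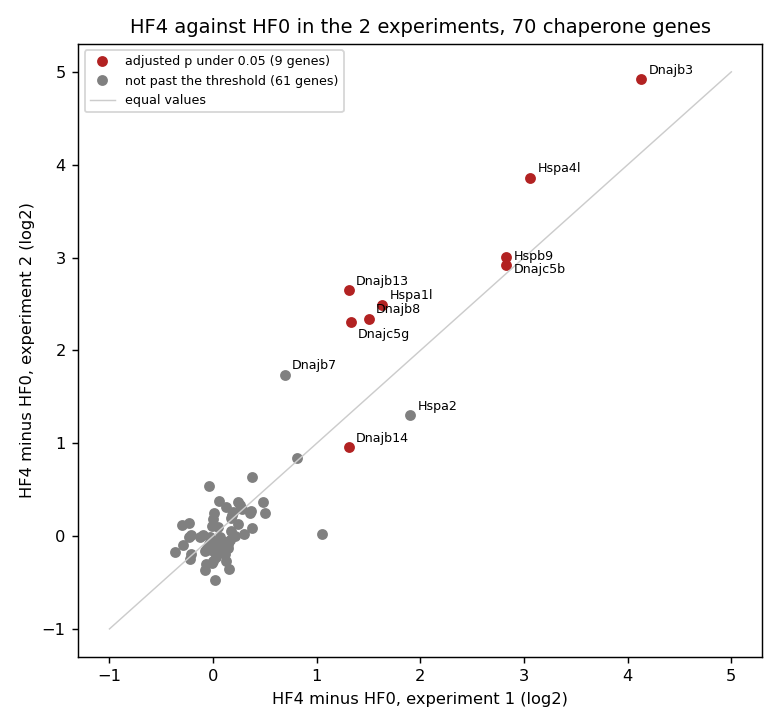
HF4 minus HF0 of each of the 70 genes in experiment 1 (horizontal axis, log2) and experiment 2 (vertical axis, log2); red points passed an adjusted p of 0.05 and the line marks equal values. The 8 called testis-enriched genes lie far from the cloud around 0, with Dnajb3 at 4.13 and 4.92, and all but Dnajb14 among the called genes lie above the line.

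Markers of male germ cells moved with these chaperones. Of the 25 markers listed, 23 had a probe and all 23 were positive in HF4 against HF0, 18 of them past the threshold, with a median of 3.19 and a range of 0.25 to 4.66. No gene is on both lists, but both consist of genes of sperm-forming cells. Relative to HF0, the testis-enriched chaperones had fitted medians of 0.25, 1.14 and 1.77 in STD, HF3 and HF4 of experiment 1. The germ cell markers had 0.83, 1.89 and 2.84 there. The direct arrays of experiment 1 differed from these values. HF3 with HF0 gave chaperone medians of 2.04 to 2.33, and HF4 with HF0 0.97 to 1.13. The germ cell medians on those arrays were 3.16 to 3.38 and 2.32 to 2.64. HF0 with STD gave chaperone medians of 0.00 to 0.19 and germ cell medians of -0.04 to 0.15. HF3 with STD gave 0.07 to 0.09 and -0.16 to 0.04. In experiment 2 the chaperone medians were 1.78 in STD, -0.03 in HF1, 1.51 in HF3, 2.57 in HF4 and, in the reversal groups of HF1, HF3 and HF4, -0.17, -0.08 and 0.03. The germ cell medians of the same extracts were 2.43, 0.11, 2.57, 3.64, -0.63, 0.11 and -0.01. The order of the extracts in the fitted values was thus much alike for both lists, which share the same pairings. Their part in the chaperone differences was not tested.

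**Figure D3:**
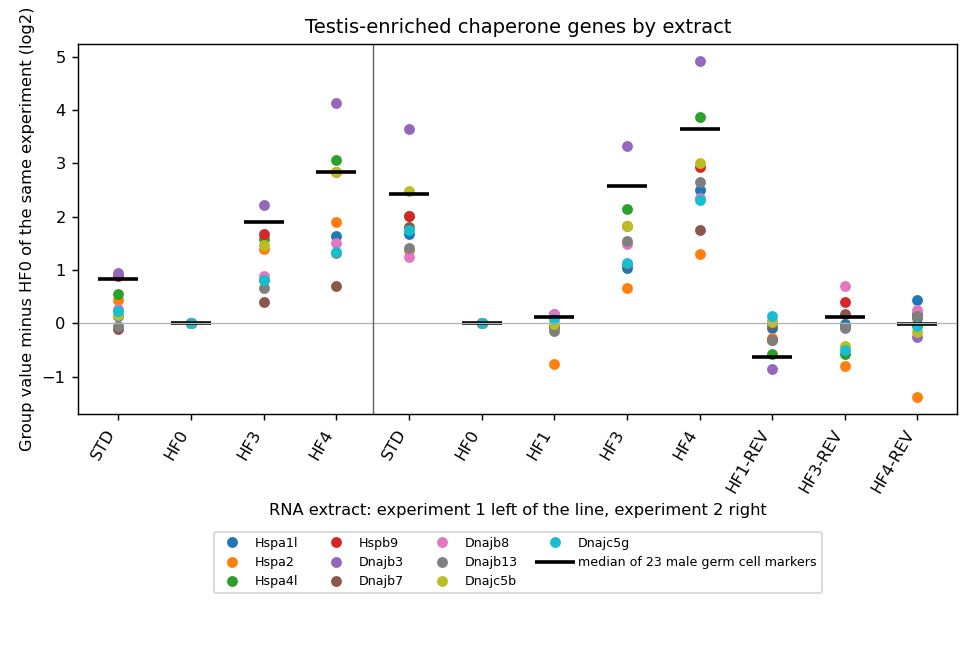
Group values of the 10 testis-enriched chaperones (points) in each extract relative to HF0 of the same experiment (log2), with the median of 23 male germ cell markers as a black bar; HF0 is 0 by definition. Points and bars are high in HF3 and HF4 of both experiments and in STD of experiment 2, and near or below 0 in HF1 and the 3 reversal groups, with Hspa2 lowest at -1.39 in HF4-REV. Values of experiment 1 are averages over pairings that did not add up.

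In HF4 against HF1 the testis-enriched genes were again positive, all 10 of them. Dnajb3 read 5.03 and 4.49 on the direct arrays, Hspa4l 4.27 and 3.75, and Dnajb13 2.92 and 2.56. In the fit 5 of the 70 genes passed, all positive: Dnajb3 at 4.94 ± 0.73 (limma adjusted p = 0.0309), Hspa4l at 3.86 ± 0.41 (limma adjusted p = 0.0238), Hspb9 at 2.90 ± 0.36, Dnajb13 at 2.59 ± 0.44 and Dnajb8 at 2.04 ± 0.30. That is 7.14% of the chaperones, where 2.81% of all features were called and 2.72% called and positive. The comparison shares its HF4 values with HF4 against HF0. Germ cell markers were again all positive, 13 of 23 past the threshold, with a median of 3.24.

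In the fitted values HF3 lay between HF0 and HF4 for these genes, without a call. The direct arrays of experiment 1 gave another order. Testis-enriched medians there were 2.04 to 2.33 for HF3 with HF0 and 0.97 to 1.13 for HF4 with HF0. The HF4 with HF3 arrays of experiment 1 gave 0.99 to 1.41, also positive. HF3 with STD gave 0.07 to 0.09 there and HF0 with STD 0.00 to 0.19, so through STD HF3 lay near HF0. In experiment 2 the medians were 1.33 for HF3 with HF0 and 2.82 to 2.84 for HF4 with HF0. In HF3 against HF0 all 10 testis-enriched chaperones were positive, from 0.76 to 2.77, with a median of 1.15. Dnajb3 read 4.18 and 4.41 in experiment 1 and 3.68 and 3.15 in experiment 2, and Hspa4l 3.02, 3.34, 2.46 and 1.59. Every one of these arrays was high, and the fitted differences were 2.77 ± 0.57 (limma adjusted p = 0.2) and 1.86 ± 0.32 (limma adjusted p = 0.15). In experiment 1 the HF3 with HF0 arrays did not add up with the arrays of either group with STD. Dnajb3 read -0.18 and -0.13 on HF3 with STD there, and 0.20 and 0.02 on HF0 with STD. Of all features 0% were called, and 7.8% had an unadjusted p under 0.05, as did 12 of the 70 genes. With the 16 pairings as observations 8 of the 70 genes passed, and so did 1076 of all features.

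In HF3 against HF1 and in HF4 against HF3 the testis-enriched genes were all positive too. Dnajb3 led both, at 3.18 ± 0.73 (limma adjusted p = 0.263) and 1.75 ± 0.57 (limma adjusted p = 0.775), followed by Hspa4l at 2.25 ± 0.41 and 1.60 ± 0.32. No chaperone passed in either comparison and 0% of all features did. An unadjusted p under 0.05 was reached by 19 of the 70 genes in HF3 against HF1, beside 9.12% of all features. In HF4 against HF3 it was reached by 9 genes, beside 5.5%.

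STD was the group in which the experiments parted. Dnajb3 read 0.20 and 0.02 on the HF0 with STD arrays of experiment 1, and -3.81, -4.10, -3.54 and -3.15 on those of experiment 2. Hspb9 read 0.10 and -0.36, then -1.66, -2.02, -2.03 and -2.34. The arrays of the 2 experiments did not overlap in either gene. Fitted over both, Dnajb3 was the most negative member of HF0 against STD at -2.30 ± 0.57 (limma adjusted p = 0.632) and Hspb9 the next at -1.44 ± 0.28 (limma adjusted p = 0.629). The fitted median of the testis-enriched list was -0.25 in experiment 1 alone and -1.78 in experiment 2 alone. On the direct arrays it was 0.00 to 0.19 in experiment 1 and -2.15 to -1.46 in experiment 2.

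Epididymis markers stood apart in the STD extract of experiment 2. The median of 14 of 18 listed markers of epididymis epithelium was 5.05 there and 1.36 in STD of experiment 1, relative to HF0, and lay between -0.63 and 0.76 in every other extract. Germ cell markers had 2.43 in that extract. Their part in the comparisons with STD was not tested. Dnaja4, a J protein of the cytosol, was among the members with a large value in that extract alone: 1.63 in STD of experiment 2, against 0.01 in STD of experiment 1 and -0.20 to 0.70 in the other extracts of experiment 2. It read -1.56, -1.84, -1.54 and -1.58 on the HF0 with STD arrays of experiment 2 and 0.09 and -0.26 on those of experiment 1.

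None of the 70 genes passed in the 3 comparisons with STD. In HF0 against STD 0% of all features were called, and an unadjusted p under 0.05 was reached by 8 of the 70 genes and 7.36% of all features. HF3 against STD had 0% called, with 6 genes and 7.47% at the unadjusted level, and the largest members were Hspb8 (0.80 ± 0.43) and Hsp90aa1 (0.74 ± 0.29) on 1 side and Dnaja4 (-0.88 ± 0.44) and Dnajb1 (-0.61 ± 0.28) on the other. In HF4 against STD 0.437% of features were called and 16 genes and 15% of features reached the unadjusted level. There Hspa4l read 2.18 ± 0.32 (limma adjusted p = 0.0647) and Dnajb3 2.23 ± 0.57 (limma adjusted p = 0.17). Without the STD extract of experiment 2, 7 of the 70 genes passed in HF4 against STD, where 3.92% of all features did. With the 16 pairings as observations 8 did, beside 5.11% of all features.

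The reversal comparisons ask what the animal's own diet changed among offspring of the same parents. In HF4 against HF4-REV 15 of the 70 genes passed, 12 positive and 3 negative, or 21.4%. Of all features 11.2% were called there, 7.35% positive and 3.8% negative. Dnajb3 read 5.41 and 4.97 on the direct arrays and Hspa4l 3.83 and 3.69. Their fitted differences were 5.37 ± 0.73 (limma adjusted p = 0.0169) and 3.71 ± 0.41 (limma adjusted p = 0.0124).

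The positive calls held 9 of the 10 testis-enriched genes. Besides Dnajb3 and Hspa4l these were Dnajc5b at 3.45 ± 0.69, Hspb9 at 3.08 ± 0.36, Hspa2 at 2.95 ± 0.50, Dnajb13 at 2.30 ± 0.44, Dnajc5g at 2.22 ± 0.45, Dnajb8 at 1.98 ± 0.30 and Hspa1l at 1.95 ± 0.46. Dnajb7 did not pass (1.50 ± 0.52, limma adjusted p = 0.111). Hspa2 owed its size to a low HF4-REV value of -1.39 as well as a high HF4 value of 1.30 in experiment 2. Germ cell markers were all positive here, 19 of 23 past the threshold, with a median of 3.31. The adipocyte markers (11 of 12 measured) had a median of -0.88, and the part of either list in the chaperone differences was not tested.

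Away from the testis list the positive calls were small. Dnajb14 came to 0.90 ± 0.21 (limma adjusted p = 0.0482). Hspb3 and Hspb7, small heat shock proteins of heart and skeletal muscle, came to 0.87 ± 0.19 (limma adjusted p = 0.0421) and 0.84 ± 0.14 (limma adjusted p = 0.0223). Hspb3 read 1.53 on 1 array and 0.44 on the other, and Hspb7 0.63 and 1.10. The skeletal muscle markers (9 of 10 measured) had a median of 0.26 in this comparison, with none past the threshold.

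On the negative side 3 members were called. Hspa1b, the heat-inducible Hsp70, read -2.19 and -2.29 on the direct arrays and had a fitted difference of -2.32 ± 0.53 (limma adjusted p = 0.0445). Dnajc12, a co-chaperone of the hydroxylases of aromatic amino acids, had -1.27 ± 0.17 (limma adjusted p = 0.0169), but its 2 dye orientations gave -0.37 and -2.18. Dnajc25 likewise read -1.79 and -0.62, for a difference of -1.12 ± 0.16 (limma adjusted p = 0.0182). Both genes were high in the HF4-REV extract alone, at 1.27 and 1.08 relative to HF0, against -0.17 to 0.19 and -0.13 to 0.33 in the other 11 extracts. Dnajb14, Dnajc25, Hspb3 and Hspb7 fell outside the rule for named genes in this comparison and were named after their values were seen.

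HF4-REV is a single extract on 2 arrays, and the calls depended on scaling. After quantile normalization of the log ratios 0 of the 70 genes passed in HF4 against HF4-REV and 136 features did, beside 2552 without that step. With the arrays scaled to 1 spread 10 genes passed, and Hspa1b, Hspa1l and Dnajc5b were among those lost. Without 1 of the 2 HF4 with HF4-REV arrays (replicate 1) 26 genes and 28.2% of all features passed. Without the other (replicate 2) 19 genes and 19.1% of all features did, but Dnajc12 was lost. Hspa1b was also lost when any of 5 other arrays was left out, and Hspa1l when any of 9 was. With 1 direct array left, here or in HF3 against HF3-REV below, the dye orientations are no longer averaged. The fit gives the extract the same weight all the same, so higher counts in those settings are not firmer calls.

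**Figure D4:**
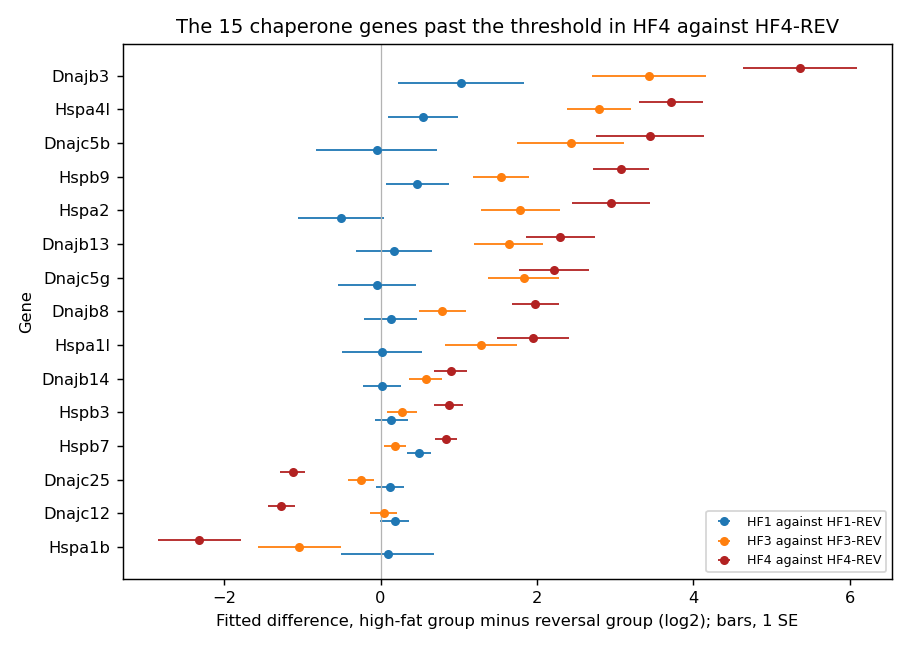
Fitted differences (log2) of the 15 chaperones past the threshold in HF4 against HF4-REV, each high-fat group minus its reversal group, with bars of 1 SE. Red points (HF4) lie farthest from 0 for each gene, with 12 genes to the right and 3 to the left; orange points (HF3) lie between them and the blue points (HF1) for the testis-enriched genes.

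HF3 against HF3-REV had no chaperone past the threshold, with 0.0874% of all features called. The testis-enriched genes were all positive, from 0.79 to 3.43. Dnajb3 read 3.65 and 3.17 (fitted 3.43 ± 0.73, limma adjusted p = 0.122) and Hspa4l 2.90 and 2.53 (fitted 2.79 ± 0.41, limma adjusted p = 0.0697). Hspa1b was the most negative at -1.04 ± 0.53 (limma adjusted p = 0.404), followed by Hspa12b at -0.84 ± 0.22. An unadjusted p under 0.05 was reached by 14 genes and 15.4% of features. Without replicate 1 of the 2 direct arrays 3 chaperones passed, beside 7.44% of all features, and without replicate 2 there were 7, beside 10.1%.

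HF1 against HF1-REV had testis-enriched genes on both sides of 0, 6 positive and 4 negative. Of the 23 germ cell markers 20 were positive there, with a median of 0.47 and a range of -0.30 to 4.37. The testis-enriched median was 0.07, Dnajb3 read 0.78 and 1.27 (fitted 1.03 ± 0.81, limma adjusted p = 1), and Hspa1l read 0.76 and -0.72. The arrays of this pairing had opposite signs for many members. No chaperone and 0% of features passed, and 1 gene and 3.59% of features reached an unadjusted p under 0.05. In HF1 against HF0 also 0% were called, with 6 genes and 7.18% at the unadjusted level, and the fitted values of the 10 testis-enriched genes lay between -0.73 and -0.02 (median -0.39). That fit takes HF0 from both experiments. In experiment 2 alone, the only one with HF1, the median was -0.03, and Dnajb3 (0.17), Dnajb8 (0.18), Hspb9 (0.15) and Dnajc5g (0.08) were positive.

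Hspa1b, Hspb8 and Hspb1, of the heat-inducible list, had a similar order of extracts in experiment 2. In the 12 comparisons the 1 call among them was Hspa1b in HF4 against HF4-REV. Hspa1b lay at 1.28 in HF1, 1.10 in HF3 and 0.14 in HF4 relative to HF0, and at 1.19, 1.64 and 2.38 in their reversal groups, in the same order. In experiment 1 it lay at 0.16 in STD, -0.11 in HF3 and -0.23 in HF4. In experiment 2 the extracts of HF1, HF3 and the reversal groups were thus high, HF0 and HF4 low, and STD lowest at -0.60. HF3 of experiment 1 was not high. Hspa1b and Hspa1a are nearly identical genes, and whether the Hspa1b probe tells them apart was not tested.

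Hspb8, a small heat shock protein that works with Bag3, followed a similar order in experiment 2, with 0.85 in HF1, 1.22 in HF3, -0.13 in HF4 and 0.73, 1.50 and 0.80 in the reversal groups. Hspb1, its partner Hsp27, had 0.47, 0.34, 0.01, 0.49, 0.69 and 0.70 in the same extracts. HF1 against HF0 was not called for Hspa1b (1.18 ± 0.53, limma adjusted p = 0.689), Hspb8 (0.82 ± 0.55, limma adjusted p = 0.785) or Hspb1 (0.41 ± 0.26, limma adjusted p = 0.776). Hspa1b in HF4 against HF1 was -1.22 ± 0.53 (limma adjusted p = 0.327), and passed with the 16 pairings as observations (limma adjusted p = 0.043), as did 14.4% of all features. That order was not particular to inducible members. Dnajc7, a J protein that binds Hsp70 and Hsp90, had 0.73, 0.79, 0.19, 0.96, 1.14 and 0.82 in the same extracts. Dnajc8 had 0.67, 0.74, 0.11, 0.50, 0.86 and 0.71, and Hspa14, an Hsp70 of the ribosome, had 0.55, 0.42, -0.01, 0.63, 0.65 and 0.59. These 3 were named after their values were seen. Erythroid markers (4 of 5 measured) had medians of 1.21, 0.12, -0.10, 1.18, 0.25 and 0.99 there, and endothelium markers (10 of 10) 0.76, 0.13, -0.09, 0.96, 0.74 and 0.51. Adipocyte markers (11 of 12) had 0.82, 0.10, -0.02, 1.46, 0.44 and 1.05. Their part in these values was not tested. All of them rest on experiment 2, in which HF1 and each reversal group is 1 extract.

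Over the 10 measured inducible genes the medians of the same extracts were 0.11, 0.11, 0.00, -0.21, 0.34 and 0.46, and some members had another order. Hsp90aa1, the stress-responsive cytosolic Hsp90, read -0.29 and -0.89 on the HF0 with STD arrays of experiment 1 and 1.46, 0.71, 1.40 and 0.46 on those of experiment 2, opposite in sign without overlap. Dnajb1, the main J partner of Hspa1b, lay at -0.79 in HF1 and -0.69 in HF1-REV and at 0.87 in STD of experiment 2. In HF4 against HF0 the 10 measured inducible genes had a median of -0.03 and ran from -0.10 to 0.38, with none past the threshold.

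**Figure D5:**
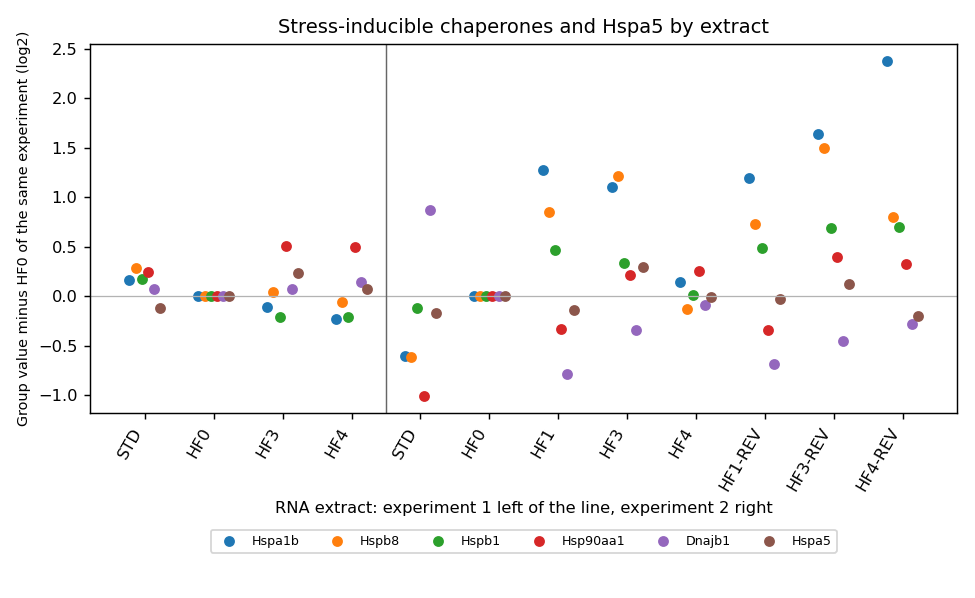
Group values of Hspa1b, Hspb8, Hspb1, Hsp90aa1, Dnajb1 and Hspa5 in each extract, relative to HF0 of the same experiment (log2), 1 point per gene. Hspa1b is highest at 2.38 in HF4-REV and Hspb8 at 1.50 in HF3-REV, while Hspa5 stays within -0.20 and 0.30 in every extract.

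Chaperones of the endoplasmic reticulum (ER) and of mitochondria lay near 0 in HF4 against HF0. Hspa5, the BiP chaperone of the ER, had 0.03 ± 0.11, its Hsp90 partner Hsp90b1 -0.10 ± 0.12, and the J proteins Dnajb9, Dnajb11, Dnajc3 and Dnajc10 lay between -0.09 and 0.01. Of the 10 ER genes only Dnajb14 passed, and their median was -0.06. Mitochondrial Hspa9, Hspd1 and Hspe1 had 0.11 ± 0.13, -0.02 ± 0.19 and 0.21 ± 0.15, and the 9 mitochondrial genes a median of -0.02 with none past the threshold. The highest of them was Dnajc15, a J protein of the inner membrane import motor, at 0.82 ± 0.19 (limma adjusted p = 0.0956). It lay at 0.81 and 0.84 in HF4 of the 2 experiments and at 0.41 and 0.01 in HF3, and passed with the 16 pairings as observations (limma adjusted p = 0.00204).

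Other cytosolic chaperones also lay near 0 there. Hspa8 had -0.07 ± 0.14, its J partner Dnaja1 -0.08 ± 0.16, the Hsp110 gene Hsph1 0.23 ± 0.12 and Hspb1 -0.10 ± 0.21. In HF4 against HF4-REV they read -0.21 ± 0.18, -0.07 ± 0.21, -0.44 ± 0.16 and -0.74 ± 0.26, none past the threshold. The 28 Dnajc genes had a median of 0.03 in HF4 against HF0, with 2 called (Dnajc5b and Dnajc5g), and the 13 Dnajb genes 0.32, with 4 called.

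Partners of the chaperones outside the set were read from 3 lists. Of 37 measured heat shock factors and co-chaperones, none passed in HF4 against HF0 or HF4 against HF1, with Bag5, a nucleotide exchange factor of Hsp70, highest in the first at 0.85 ± 0.19 (limma adjusted p = 0.0805). In HF4 against HF4-REV, where 11.2% of all features were called, 5 of the 37 passed, 3 positive and 2 negative. The positive ones were Hyou1, an Hsp110 relative of the ER, at 1.58 ± 0.37 (limma adjusted p = 0.0462), Bag5 at 1.19 ± 0.24 (limma adjusted p = 0.0349) and Bag3, the partner of Hspb8, at 1.14 ± 0.19 (limma adjusted p = 0.0237). The negative ones were Hspbap1 at -1.05 ± 0.19 (limma adjusted p = 0.0266) and Ahsa1, an activator of Hsp90, at -0.77 ± 0.14 (limma adjusted p = 0.026). Bag3 lay at -1.24 in HF4-REV and -0.89 in HF1, where Hspb8 was positive.

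Among 15 subunits of the cytosolic chaperonin TRiC and of prefoldin, Cct6b was the 1 gene called in HF4 against HF0, at 2.93 ± 0.34 (limma adjusted p = 0.0108), and in HF4 against HF1, at 3.07 ± 0.44 (limma adjusted p = 0.0289). It is the testis form of a TRiC subunit, and its values by extract followed the testis-enriched chaperones, with 1.42 and 2.53 in HF3 and HF4 of experiment 1 and 2.66 and 3.33 in those of experiment 2. In HF4 against HF4-REV it passed at 2.72 ± 0.44, together with the prefoldin subunit Pfdn1 at 1.61 ± 0.19 (limma adjusted p = 0.0135), which was low in the HF4-REV extract alone (-1.43). Of 23 genes of the unfolded protein response, 0 passed in HF4 against HF0, with a median of -0.03, and 1, the oxidase Ero1a at 0.63 ± 0.14 (limma adjusted p = 0.0399), in HF4 against HF4-REV. The counts of all 3 lists in that last comparison, 5 of 37, 2 of 15 and 1 of 23, stand beside the same 11.2% of all features. In the other 9 comparisons 0 genes of these 3 lists passed.

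Of the members 7 had more than 1 probe, and their probes did not always move together. The correlation between probes of 1 gene over the 34 arrays ran from -0.367 in Dnajc16 to 0.84 between 2 of the 3 probes of Dnajb4. None of the genes called above is among the 7.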

How the data were processed

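Epididymal fat RNA was hybridised on 34 two-colour arrays of 25344 probes. Per the labels the dyes were Cy3 and Cy5, and the authors deposited 1 log2 ratio per probe and array; for background correction, normalization, numerator and log base nothing was given in the sources used here. A log2 scale was assumed because the highest value, 7.99, exceeds the 4.82 that log10 of 16-bit intensities allows; a natural log was not tested. Intensities were not used here, so the number of arrays limits the precision. Probes were named through the platform annotation, and positions are from RefSeq (GRCm38.p6).

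Each array was centred on its median, probes of a gene and dye-swapped arrays were averaged, and a least-squares fit gave each group a value per experiment. These 12 values were tested with limma 3.58.1 in R 4.3.3 (block: experiment; degrees of freedom: 3 residual, 3.16 prior), with Benjamini-Hochberg adjustment over 22879 features. The fit was tested on simulated data. Tables and figures used Python 3.11.15, numpy 2.4.6, pandas 2.3.3 and matplotlib 3.10.9.

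The members and lists were chosen with earlier results of these data known. Genes were named by rule: members past the threshold (up to 10 a comparison), the 2 most positive and 2 most negative of each comparison, 19 well-known chaperones, and up to 3 called genes of each pathway list, or its extremes. Other genes, such as Dnajc15, Dnajb7 and Hspb8 by extract, were chosen after their values were seen. Alternatives covered centring, scaling, probes, filter, prior, unit of replication, single experiments, single arrays and the STD extract of experiment 2.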

Additional observations from a re-analysis of the deposited data

Results flagged for a closer look

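Among 88 pairs of comparisons checked, 10 had every array of one on one side of 0 and every array of the other on the opposite side. Each value is the difference between the mean array values of the pair, and none of these differences was tested.

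Between experiments, HF0 against STD differed (experiment 1 minus experiment 2) by 3.76 for Dnajb3, with arrays of 0.02 to 0.20 and -4.10 to -3.15. For Hsp90aa1 it differed by -1.60, with -0.89 to -0.29 and 0.46 to 1.46. HF4 against HF0 differed by -0.62 for Hspa1b, with -0.73 to -0.12 and 0.01 to 0.39.

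Between reversal comparisons, Hspa2 in HF1 against HF1-REV (-0.64 to -0.37) lay -1.98 from HF3 against HF3-REV (1.32 to 1.62) and -3.20 from HF4 against HF4-REV (2.61 to 2.78). HF4 minus HF1 was 2.40 for Dnajc5g, -0.79 for Hspe1 and -1.45 for Dnajc12. HF4 minus HF3 was -1.43 for Dnajc12 and 0.25 for Hsp90b1.

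Of 4 values checked for an array far from the others, 0 had one.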

How the results depend on the processing

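No paired analysis was possible because replicate numbers only name the arrays within a pairing and link no extracts across groups. The experiment was a block in the fit throughout. Depth does not apply to arrays, whose number limits the precision, and without intensities signal over background is unknown. The cause of the changes below was not tested.

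Counts of chaperones past the threshold moved as follows, each with the share of all features called in that setting. With 34 arrays as observations, which treats dye swaps as separate samples, they were 17 in HF0 against STD (13.2%), 1 in HF3 against STD (1.8%), 7 in HF1 against HF0 (7.17%), 18 in HF4 against STD (14.2%), 16 in HF3 against HF0 (11.6%), 18 in HF4 against HF0 (14.8%), 16 in HF3 against HF1 (8.37%), 30 in HF4 against HF1 (20.7%), 11 in HF4 against HF3 (7.61%), 3 in HF3 against HF3-REV (1.97%) and 23 in HF4 against HF4-REV (20.1%). With the 16 pairings they were 8 in HF4 against STD (5.11%), 8 in HF3 against HF0 (4.7%), 14 in HF4 against HF0 (10%) and 22 in HF4 against HF1 (14.4%). Without the STD extract of experiment 2 they were 7 in HF4 against STD (3.92%), 6 in HF3 against HF0 (2.55%), 5 in HF3 against HF1 (1.97%), 12 in HF4 against HF1 (6%), 4 in HF4 against HF3 (1.1%) and 7 in HF3 against HF3-REV (3.87%). Scaling gave 2 in HF4 against STD (1.51%), 2 in HF3 against HF0 (0.616%), 9 in HF4 against HF1 (3.94%) and 1 in HF3 against HF3-REV (1.08%). Quantile normalization gave 1 in HF3 against HF3-REV (0.918%) and 0 in HF4 against HF4-REV (0.594%). Testing only features above the median variance gave 1 in HF4 against STD (1.54%) and 9 in HF4 against HF1 (7.24%). Without the 4 arrays of the last date in experiment 2, an alternative chosen after seeing the data, there were 2 in HF4 against STD (0.852%).

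Leaving out 1 array at a time gave 0 to 1 in HF4 against STD, 0 to 7 in HF3 against HF3-REV, 7 to 10 in HF4 against HF0, 5 to 7 in HF4 against HF1 and 11 to 26 in HF4 against HF4-REV.

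The median of all chaperones moved to -0.09 in HF0 against STD, 0.20 in HF3 against HF0 and 0.17 in HF4 against HF0 with those features. In HF4 against HF0 it was 0.03 after quantile normalization and 0.11 in experiment 1 alone (0.05 to 0.11 without 1 array). In HF3 against HF0 it was 0.03 in experiment 2 alone (0.05 to 0.12 without 1 array). In HF4 against STD it was 0.10 without the STD extract of experiment 2 and 0.11 in experiment 1 alone (0.09 to 0.20 without 1 array). In HF1 against HF0 it was -0.07 after scaling, -0.03 with 34 arrays or 16 pairings and -0.05 in experiment 2 alone (-0.14 to -0.06 without 1 array). The fitted testis-enriched median in HF0 against STD was -0.25 in experiment 1 alone, where the direct arrays gave 0.00 to 0.19, and -1.78 in experiment 2 alone.

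Of 1100 tested repeats of the 25 called and named differences, 38 were no longer past the threshold, and 0 of all 1134, single experiments included, turned sign. Some repeats could not change: leaving out an array with a reversal group does not touch HF4 against HF0 or HF4 against HF1. The 25 leave out Dnajb14, Dnajc25, Hspb3 and Hspb7 in HF4 against HF4-REV. In HF4 against HF0, Dnajc5g was lost in 5 settings, Dnajc5b after quantile normalization and without 1 HF0 with STD array of experiment 2, and Dnajb14 without the arrays of the last date.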
